A study of Mus musculus with 2 samples.

Results

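The 10 genes described here encode the calcium-activated phosphatase calcineurin (Ppp3ca, Ppp3cb and Ppp3r1), proteins that bind and inhibit it (Rcan1, Rcan2 and Cabin1) and the NFAT transcription factors that it activates (Nfatc1, Nfatc2, Nfatc3 and Nfatc4). They were taken by gene symbol from a deposited table of 44787 gene rows, and all 10 were found. The 2 RNA libraries, 1 labelled SRSF1-MKO and 1 wild-type (WT), were from skeletal muscle of the hindlimb, taken on postnatal day 30 from mice of C57BL/6 background. The labels do not spell out MKO, and the sources used here do not give the promoter or cell type behind the deletion, the number of animals per library or their sex. The values are FPKM, fragments or reads per kilobase of gene model, scaled to library depth (per 1000000 mapped reads), so levels can be compared between genes per unit of length. With 1 library per group no difference below has a replicate check and no test between genotypes was made; the 95% intervals cover the counting of reads only. The second of the 2 description lines of each sample names the table column of its own genotype, whereas the first line names the other one; each column was assigned by the genotype that its name carries, and every direction below rests on that.

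Calcineurin is a heterodimer of a catalytic A subunit and a small calcium-binding B subunit, and it is switched on by calcium-loaded calmodulin. It removes phosphates from cytoplasmic NFAT, which then enters the nucleus and binds DNA, often beside AP-1 or MEF2 proteins, until kinases return it to the cytoplasm. In rodent skeletal muscle the pathway is known for reading slow motor nerve activity and for maintaining slow and oxidative fibre genes. RCAN proteins bind the phosphatase and hold it back, and the start inside the Rcan1 gene is known to be induced by calcineurin and NFAT, so that the gene is often read as an indicator of the pathway's activity.

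The start regions of Rcan1 and Ppp3cb are shown first, because these were the 2 genes past the 1.5-fold limit used below. Each window runs from 250 bases before to 50 bases after a RefSeq start (build GRCm38.p6) and is written in the direction of the gene, 5′ to 3′. Capitals mark the NFAT core GGAAA or the AP-1 letters TGANTCA on either strand. Rcan1 has a window at an upstream RefSeq start, chr16:92466120-92466419, and another at a start further inside the gene, chr16:92400029-92400328, both on the minus strand. The Ppp3cb window is chr14:20546524-20546823, also on the minus strand.
Rcan1 upstream start: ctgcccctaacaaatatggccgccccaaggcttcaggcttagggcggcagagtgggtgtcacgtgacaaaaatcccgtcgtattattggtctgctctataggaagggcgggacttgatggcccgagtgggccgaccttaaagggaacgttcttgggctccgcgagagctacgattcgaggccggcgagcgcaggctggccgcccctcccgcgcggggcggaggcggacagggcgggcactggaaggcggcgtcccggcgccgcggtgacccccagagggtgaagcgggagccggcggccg
Rcan1 inner start: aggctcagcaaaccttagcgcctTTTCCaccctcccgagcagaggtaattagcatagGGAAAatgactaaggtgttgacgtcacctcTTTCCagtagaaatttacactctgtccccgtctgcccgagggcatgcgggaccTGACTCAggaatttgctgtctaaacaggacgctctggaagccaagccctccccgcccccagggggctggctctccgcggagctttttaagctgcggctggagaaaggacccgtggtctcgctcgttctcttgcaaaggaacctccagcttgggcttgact
Ppp3cb start: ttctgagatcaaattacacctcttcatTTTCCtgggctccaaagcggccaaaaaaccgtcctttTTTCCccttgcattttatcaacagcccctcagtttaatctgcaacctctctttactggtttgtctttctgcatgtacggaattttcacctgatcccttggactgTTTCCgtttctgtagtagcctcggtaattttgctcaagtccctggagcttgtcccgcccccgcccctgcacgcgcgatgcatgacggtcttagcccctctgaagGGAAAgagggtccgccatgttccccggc
The upstream Rcan1 window held 0 matches to GGAAA and 0 to TGANTCA. The inner Rcan1 window held 3 matches to GGAAA and 1 to TGANTCA, and the Ppp3cb window held 4 matches to GGAAA and 0 to TGANTCA. Among 32851 windows of this length, 61.3% held GGAAA at least once, 9.42% held it at least 3 times, and 7.81% held TGANTCA. Of 13 windows found for 8 of the 10 genes, 4 had 3 or more matches to GGAAA and 6 had 0. Besides the inner Rcan1 window and that of Ppp3cb, windows of Nfatc2 and Nfatc4 held 3 each. Neither of those genes was past the 1.5-fold limit. A match describes the letters of a window and not a bound site, and the FPKM table gives 1 value per gene that does not separate the starts.

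Srsf1, the targeted gene, was at 6.70 FPKM in the SRSF1-MKO library and 13.7 FPKM in the WT library, a ratio of 0.489 (95% interval 0.449 to 0.533 on approximate reads). The table places it on an alternate scaffold, and GENCODE places it on GRCm38 chromosome 11, 88047373 to 88053755, plus strand. The libraries hold 21350284 reads for SRSF1-MKO and 23146640 for WT, as recovered from the steps of the FPKM values. Reads of each gene also rest on a model length set near the longest annotated transcript, so they are approximate. Summed over all genes they came to 108.7% of the SRSF1-MKO total and 105.4% of the WT total. The 10 genes had between 52 and 5201 such reads per library.

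Of the 10 genes, 8 reached a mean of 1 FPKM over both libraries; Nfatc2 and Nfatc4 did not. On the scale of log2(FPKM + 1), 0 of the 8 were at least 1.5-fold higher in the SRSF1-MKO library and 2, Ppp3cb and Rcan1, were at least 1.5-fold lower. Of the 10478 table genes that pass the same filter, 23.7% were higher and 8.13% were lower by this limit, 31.8% in all, so the 2 of 8 stand beside a background of 8.13%. The median log2 ratio of the 8 genes was -0.16, beside 0.21 over those 10478 genes and 0.32 over the 4991 genes whose mean reached 5 FPKM. With the median of 0.32 set to 0, Ppp3r1 joined the lower genes, so that 3 of 8 were lower and 0 were higher, beside 18.1% lower and 11.4% higher of all genes (29.5% in all). Of all 10 genes, 3 had more FPKM in SRSF1-MKO and 7 had less. The log2 ratios of 9, all but Rcan2, were below the median of 0.32. Ppp3ca, at 0.30, was above the median of 0.21 over the 10478 genes. Medians of genes within 0.5 log2 units in mean FPKM were 0.43 for Ppp3ca, 0.19 for Nfatc1, 0.17 for Nfatc3 and 0.07 for Cabin1. Each of these members was below its own such median. In bulk tissue, fewer cells of a type and less RNA per cell cannot be told apart.

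**Figure D1:**
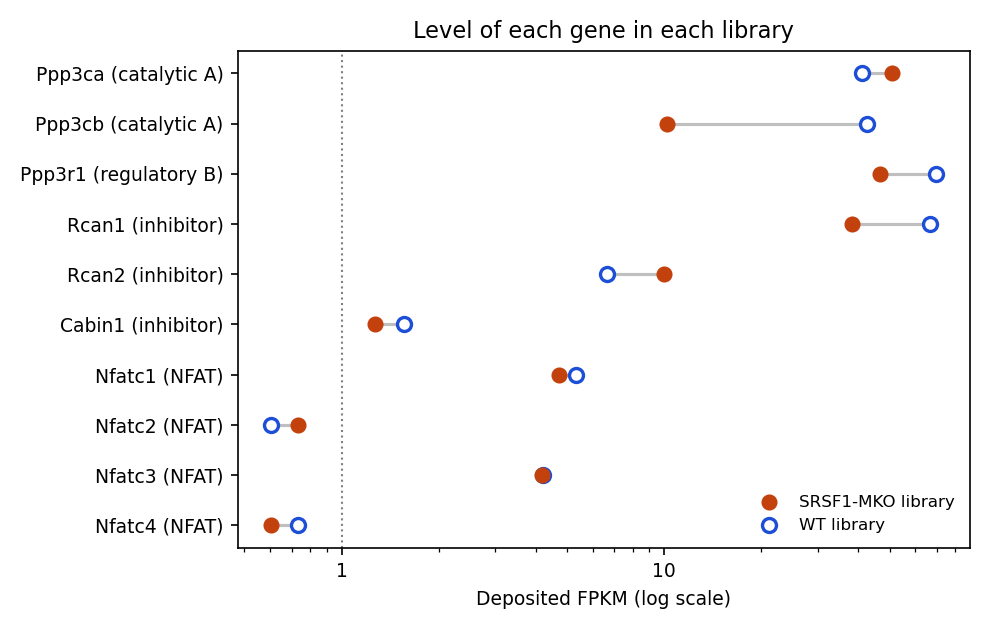
Deposited FPKM (log axis) of the 10 genes, with filled points for the SRSF1-MKO library and open points for the WT library; the dotted line marks 1 FPKM. Ppp3cb, at 10.2 FPKM in SRSF1-MKO and 42.7 in WT, has the widest gap, and the points of Nfatc3 lie on each other.

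The catalytic subunit genes differed from each other. Ppp3cb, which encodes the beta isoform of the A subunit, lies on chr14:20499364-20546573, minus strand (GRCm38, as all positions here), and was at 10.2 FPKM in the SRSF1-MKO library and 42.7 FPKM in the WT library. It was 4.19-fold lower in SRSF1-MKO (95% interval 3.89 to 4.52), from 844 reads there and 3836 in WT. Its log2 ratio of -1.97 was lower than that of all but 0.525% of the 10478 genes, and of all but 0.690% of the 869 genes within 0.5 log2 units of its mean FPKM. Ppp3ca, the alpha isoform and the main catalytic subunit in many tissues (chr3:136670124-136937727, plus strand), was at 50.9 FPKM in SRSF1-MKO and 41.0 FPKM in WT. Its ratio was 1.24 (1.19 to 1.29), from 5201 and 4544 reads. On the log2(FPKM + 1) scale its difference was 0.30 as deposited and -0.02 with the median of 0.32 set to 0. That difference was 0.05 with trimmed-mean (TMM) scaling of FPKM. With FPKM rescaled to reads outside mitochondrial genes and 18S ribosomal RNA it was 0.48, so its direction depends on the scaling. Ppp3cc, the third catalytic gene, was low in both libraries, at 3.42 FPKM in SRSF1-MKO and 3.22 FPKM in WT.

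Ppp3r1 encodes the B subunit that every calcineurin dimer of muscle needs (chr11:17159263-17200375, plus strand), and it lay at the edge of the limit. It was at 46.8 FPKM in the SRSF1-MKO library and 69.9 FPKM in the WT library, 1.49-fold lower in SRSF1-MKO (1.43 to 1.57). Its log2 ratio was -0.57 as deposited, just inside the limit of 0.58, and -0.89 with the median set to 0. Ppp3r1 shares 462 exonic bases on the same strand with Wdr92, which was at 1.63 FPKM in SRSF1-MKO and 1.92 FPKM in WT, far below Ppp3r1 in both. The testis form of the B subunit, Ppp3r2, was listed at 0 in both libraries.

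**Figure D2:**
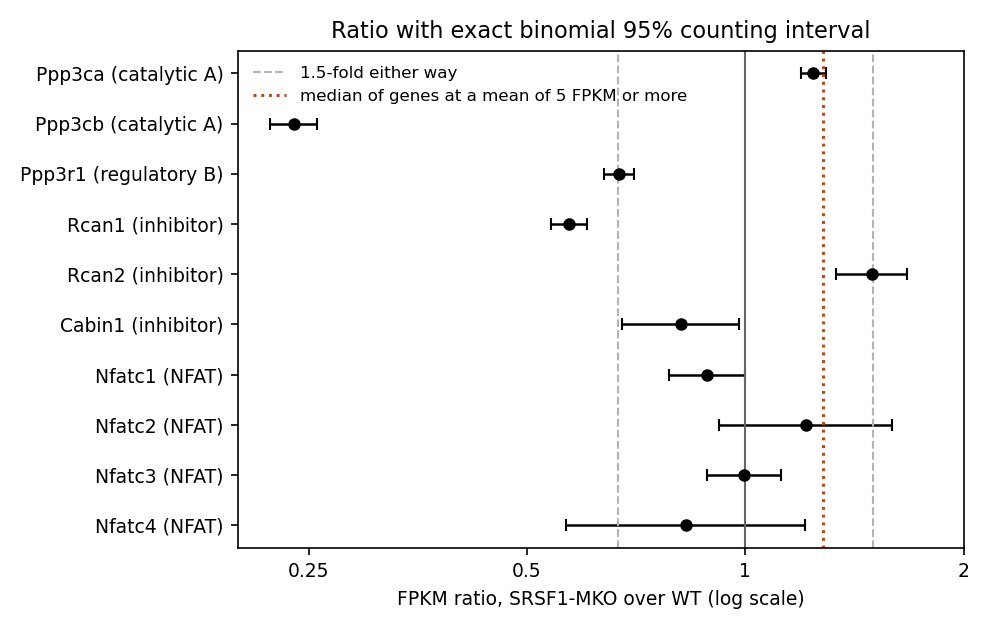
FPKM ratio of SRSF1-MKO over WT (log axis) with its exact binomial 95% counting interval for each gene. Dashed lines mark 1.5-fold either way and the dotted line the median FPKM ratio, 1.28, of the 4991 genes whose mean reached 5 FPKM. Ppp3cb and Rcan1 lie left of the lower dashed line, Ppp3r1 lies on it, and Rcan2 alone lies to the right of the dotted line.

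Ratios between subunit genes within a library do not depend on how the libraries are scaled. Ppp3ca over Ppp3cb was 4.99 in the SRSF1-MKO library and 0.960 in the WT library, a change of 5.20-fold (95% interval 4.78 to 5.66 from the log odds of reads). In SRSF1-MKO, Ppp3ca made up 78.9% of the FPKM of the 3 catalytic genes and Ppp3cb 15.8%. In WT, Ppp3ca made up 47.2% and Ppp3cb 49.1%. The WT library therefore held the alpha and beta messages at nearly equal levels, whereas the SRSF1-MKO library held mostly the alpha message. The 3 catalytic genes summed to 64.5 FPKM in SRSF1-MKO and 86.9 FPKM in WT, a ratio of 0.742. That sum was 1.38 times the FPKM of Ppp3r1 in SRSF1-MKO and 1.24 times in WT, so the catalytic and regulatory messages stood in similar proportion in both libraries. Of 31-base words in transcripts of Ppp3ca and Ppp3cb, 0.0500% and 0.304% also occur in another gene, and 0 of those of Ppp3ca occur in another of the 10 genes.

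**Figure D3:**
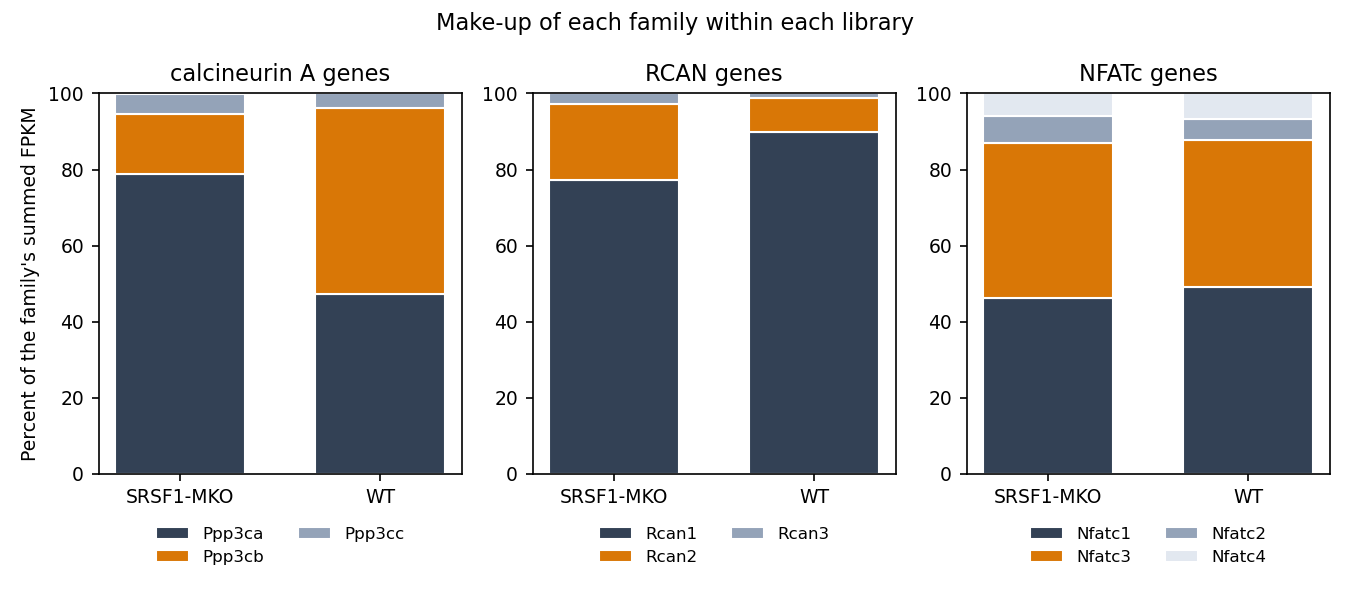
Percent of each family's summed FPKM taken by each gene in the SRSF1-MKO library (left bar) and the WT library (right bar). Ppp3cb takes 15.8% of the catalytic genes in SRSF1-MKO and 49.1% in WT, Rcan2 takes 20.1% in SRSF1-MKO and 8.97% in WT of the RCAN genes, and the NFATc bars are alike.

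Among the inhibitors, the 2 main RCAN genes lay on opposite sides of 1. Rcan1 (chr16:92391953-92470867, minus strand) was at 38.2 FPKM in the SRSF1-MKO library and 66.8 FPKM in the WT library, 1.75-fold lower in SRSF1-MKO (1.66 to 1.85), from 1895 and 3596 reads. Its log2 ratio was -0.79 as deposited and -1.11 with the median set to 0. Rcan2, a relative known from thyroid hormone responses and from brain and muscle (chr17:43801351-44039516, plus strand), was at 9.96 FPKM in SRSF1-MKO and 6.67 FPKM in WT. Its ratio of 1.49 (1.34 to 1.67) lay under the limit of 1.5-fold, and its log2 difference of 0.52 was 0.19 with the median set to 0. Rcan2 over Rcan1 was 0.261 in SRSF1-MKO and 0.0997 in WT, a change of 2.61-fold (2.31 to 2.96) that does not depend on scaling. Rcan3, the least abundant relative, was at 1.35 FPKM in SRSF1-MKO and 0.830 FPKM in WT, a log2 difference of 0.36 with the pseudocount of 1 FPKM. Its FPKM ratio of 1.63 (1.26 to 2.14), from 148 and 98 reads, was above 1.5 and above that of Rcan2. Rcan1 remained the leading RCAN gene in both libraries, with 77.1% of RCAN FPKM in SRSF1-MKO and 89.9% in WT.

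Set against the phosphatase itself, Rcan1 stayed closer to the B subunit than to the alpha subunit. Rcan1 over Ppp3r1 was 0.816 in the SRSF1-MKO library and 0.956 in the WT library, a ratio of 0.854 between libraries (0.794 to 0.918). Rcan1 over Ppp3ca was 0.751 in SRSF1-MKO and 1.63 in WT, a ratio of 0.460 (0.430 to 0.493). Cabin1, a nuclear protein that binds calcineurin and also represses MEF2 (chr10:75646112-75764341, minus strand), was a low message at 1.27 FPKM in SRSF1-MKO and 1.56 FPKM in WT. Its ratio of 0.815 had an interval of 0.676 to 0.982 from 203 and 270 reads, and its log2 difference was -0.17.

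As deposited, the NFAT genes were close to level between the libraries. Nfatc1, the family member most often tied to slow fibre genes in rodent muscle (chr18:80606205-80713071, minus strand), was at 4.73 FPKM in the SRSF1-MKO library and 5.34 FPKM in the WT library, a ratio of 0.885 (0.784 to 0.999). Nfatc3, which is known from myoblasts and muscle fibres (chr8:106058840-106130537, plus strand), was at 4.19 FPKM in SRSF1-MKO and 4.21 FPKM in WT, a ratio of 0.995 (0.885 to 1.12). Nfatc2, known from T cells and from the growth of muscle fibres (chr2:168476410-168601657, minus strand), was at 0.733 FPKM in SRSF1-MKO and 0.606 FPKM in WT, from 115 and 103 reads. Nfatc4, a member also active in heart and nerve cells (chr14:55823144-55833943, plus strand), was at 0.606 FPKM in SRSF1-MKO and 0.731 FPKM in WT, from 52 and 68 reads. The interval of the ratio included 1 for Nfatc2 (0.920 to 1.59), Nfatc3 and Nfatc4 (0.566 to 1.21), as deposited. For Nfatc3 this depends on the scaling, since its log2 difference was -0.01 as deposited and -0.33 with the median of 0.32 set to 0. With the median of 0.32 set to 0, the log2 differences of the NFAT genes lay between -0.47 for Nfatc1 and -0.21 for Nfatc2. With TMM scaling of FPKM they were -0.36 for Nfatc1, -0.21 for Nfatc3, -0.20 for Nfatc4 and 0.005 for Nfatc2. With FPKM rescaled to reads outside mitochondrial genes and 18S ribosomal RNA, they lay between -0.04 for Nfatc4 and 0.19 for Nfatc2.

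The make-up of the NFAT family was also similar. Nfatc1 took 46.1% of the summed FPKM of the 4 genes in the SRSF1-MKO library and 49.1% in the WT library, and Nfatc3 took 40.8% in SRSF1-MKO and 38.7% in WT. Nfatc1 over Nfatc3 was 1.13 in SRSF1-MKO and 1.27 in WT, with an interval for the change of 0.753 to 1.05. The family summed to 10.3 FPKM in SRSF1-MKO and 10.9 FPKM in WT. Nfat5, the relative that responds to osmotic stress and lacks the calcineurin-binding region, was at 2.32 FPKM in SRSF1-MKO and 1.57 FPKM in WT, a log2 difference of 0.37.

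Both libraries held the phosphatase subunits and Rcan1 at the top and Nfatc2 and Nfatc4 at the bottom. In the SRSF1-MKO library the order by FPKM was Ppp3ca, Ppp3r1, Rcan1, Ppp3cb, Rcan2, Nfatc1, Nfatc3, Cabin1, Nfatc2 and Nfatc4. In the WT library it was Ppp3r1, Rcan1, Ppp3cb, Ppp3ca, Rcan2, Nfatc1, Nfatc3, Cabin1, Nfatc4 and Nfatc2. Ppp3ca thus had rank 1 in SRSF1-MKO and rank 4 in WT, while Ppp3cb stood at the level of Rcan2 in SRSF1-MKO. Within counting error, Ppp3cb could not be told from Rcan2 in SRSF1-MKO (level ratio 1.02, 0.926 to 1.13), and neither could Nfatc1 from Nfatc3 or Nfatc2 from Nfatc4. In WT the same held for Ppp3cb and Ppp3ca (1.04, 0.998 to 1.09) and for Nfatc4 and Nfatc2. Against the 10478 genes, Ppp3cb stood at percentile 69.04 by level in SRSF1-MKO and 92.8 in WT, whereas Ppp3ca stood at 91.9 in SRSF1-MKO and 92.5 in WT.

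Upstream of the phosphatase, the listed genes of calmodulin, calcium release and calcium entry were unevenly placed. Of 15 listed genes, 12 had a mean of 1 FPKM or more; 4 were lower by 1.5-fold or more and 0 were higher by that much. Their median log2 ratio was -0.37, beside 0.21 over all genes, of which 8.13% were lower and 23.7% higher. Among the lower genes was Ryr1, the calcium release channel, at 59.1 FPKM in SRSF1-MKO and 280.5 FPKM in WT. Cacna1s, its voltage sensor, was at 48.9 FPKM in SRSF1-MKO and 131 FPKM in WT. Calm3, a calmodulin gene, was at 23.02 FPKM in SRSF1-MKO and 81.8 FPKM in WT. Calm2, also a calmodulin gene, was at 119 FPKM in SRSF1-MKO and 172 FPKM in WT, a log2 difference of -0.53 that was within the limit. With the median set to 0, 7 of the 12 were lower, beside 18.1% of all genes. The store-operated entry genes Stim1 (25.6 FPKM in SRSF1-MKO and 22.8 in WT) and Orai1 (10.4 in SRSF1-MKO and 6.83 in WT) were within the limit. So was Itpr1, another calcium release channel, at 2.49 FPKM in SRSF1-MKO and 1.61 FPKM in WT. The FPKM ratios of Orai1 (1.52, 1.31 to 1.77) and Itpr1 (1.55, 1.36 to 1.78) were above 1.5. With a pseudocount of 0.1 FPKM the list had 2 higher and 5 lower genes, beside 29.5% higher and 11.2% lower of all genes.

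**Figure D4:**
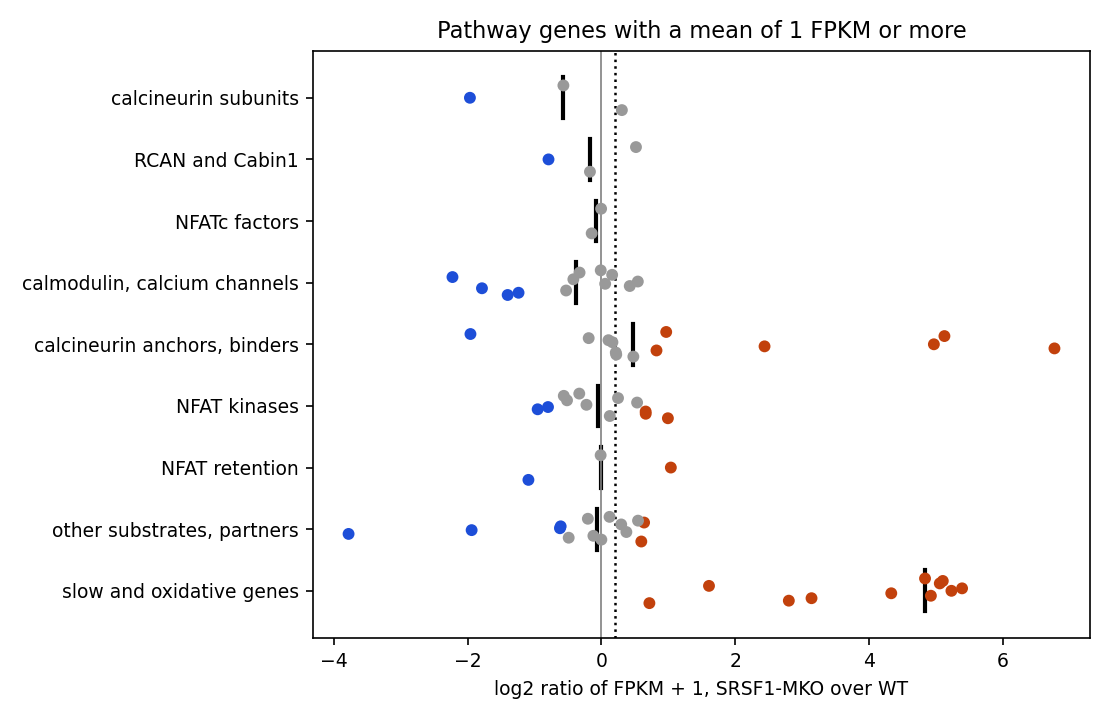
log2 ratio of FPKM + 1, SRSF1-MKO over WT, for each pathway gene with a mean of 1 FPKM or more; orange points are at least 1.5-fold higher in SRSF1-MKO, blue points at least 1.5-fold lower, bars are list medians and the dotted line is the all-gene median of 0.21. Slow and oxidative genes lie to the right, with a median of 4.83, while the NFATc points lie near 0.

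Genes listed for anchoring or binding calcineurin held the widest range, and the binding of each listed protein was not examined here. Of 15 listed genes, 13 were measured by the same filter, with 6 higher and 1 lower; their median log2 ratio was 0.48. Of all genes 23.7% were higher and 8.13% lower, and the median was 0.21. The calsarcins, which tether calcineurin to the Z-disc, went apart. Myoz2, known as the calsarcin of heart and slow fibres, was at 404 FPKM in SRSF1-MKO and 10.6 FPKM in WT, 38.1-fold higher (35.2 to 41.2). Myoz3, a calsarcin of fast fibres, was at 11.1 FPKM in SRSF1-MKO and 46.2 FPKM in WT, a ratio of 0.241. Myoz1, the abundant fast-fibre calsarcin, was at 535 FPKM in SRSF1-MKO and 610.5 FPKM in WT. Csrp3, a Z-disc LIM protein that binds calcineurin in mouse heart, was at 252 FPKM in SRSF1-MKO and 1.32 FPKM in WT. Fhl1, another LIM protein, was at 658 FPKM in SRSF1-MKO and 20.1 FPKM in WT, and Fbxo32, a ubiquitin ligase that takes calcineurin to degradation in heart muscle, at 36.6 FPKM in SRSF1-MKO and 5.95 FPKM in WT. Genes of the cyclophilin and FKBP proteins, through which immunosuppressants reach calcineurin, included Ppia (166 FPKM in SRSF1-MKO and 84.5 in WT) and Fkbp1a (17.9 in SRSF1-MKO and 15.8 in WT). Akap5, the neuronal calcineurin anchor, was under the filter at 0.136 FPKM in SRSF1-MKO and 0.819 FPKM in WT.

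Kinases that return NFAT to the cytoplasm were split. Of 12 genes, all above the filter, 3 were higher and 2 lower, beside 23.7% higher and 8.13% lower of all genes, and the median log2 ratio was -0.05, beside 0.21. The higher genes were Csnk1a1 (60.3 FPKM in SRSF1-MKO and 29.8 in WT), Csnk1e (16.8 in SRSF1-MKO and 10.2 in WT) and Dyrk1a (12.9 in SRSF1-MKO and 7.83 in WT); the first 2 encode casein kinase 1 and the third a kinase that primes NFAT for export. The lower genes were Dyrk1b (6.46 FPKM in SRSF1-MKO and 13.4 in WT) and Dyrk2 (6.88 in SRSF1-MKO and 12.7 in WT). With the median set to 0 the counts were 1 higher, Csnk1a1, and 5 lower, beside 11.4% higher and 18.1% lower of all genes, so the split depends on the scaling. Gsk3b, the export kinase best known for NFAT, was at 7.64 FPKM in SRSF1-MKO and 4.98 FPKM in WT, a log2 difference of 0.53. Of the Homer proteins, some of which compete with calcineurin for NFAT, Homer2 was higher (5.59 FPKM in SRSF1-MKO and 2.21 in WT) and Homer1 lower (6.87 in SRSF1-MKO and 15.8 in WT). Homer3 was at 1.52 FPKM in SRSF1-MKO and 1.54 FPKM in WT, and the noncoding RNA Nron was listed at 0 in both libraries.

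Partners of NFAT and other calcineurin substrates had 2 higher and 4 lower genes of 14 measured; the median log2 ratio was -0.06, beside 0.21 over all genes, of which 23.7% were higher and 8.13% lower. The 4 lower genes were the AP-1 genes of the list: Fos (6.74 FPKM in SRSF1-MKO and 105 in WT), Jun (29.7 in SRSF1-MKO and 117 in WT), Junb (5.88 in SRSF1-MKO and 9.58 in WT) and Jund (12.3 in SRSF1-MKO and 19.3 in WT). Fos, Jun and Junb are immediate early genes that respond quickly to activity and stress, and they were low in the same library as Rcan1; their part in the Rcan1 difference was not tested. The 2 higher genes were Mef2c (121 FPKM in SRSF1-MKO and 77.7 in WT), a MEF2 factor of muscle, and Crtc2 (4.67 in SRSF1-MKO and 2.75 in WT), a CREB coactivator; neither was higher with the median set to 0. Of 11 slow and oxidative genes known to respond to calcineurin in rodent muscle, 11 were higher, and the median log2 ratio was 4.83; 10 of them stayed past the limit with the median set to 0, all but Atp2a2. By log2(FPKM + 1) the largest ratios were those of Myl3 (44.9 FPKM in SRSF1-MKO and 0.0962 in WT), Myl2 (49.5 in SRSF1-MKO and 0.345 in WT), Tnni1 (41.3 in SRSF1-MKO and 0.235 in WT) and Tnnc1 (44.5 in SRSF1-MKO and 0.369 in WT). The WT values of these 4 rest on 2 to 14 approximate reads, and their order is set by the pseudocount. By FPKM ratio Myh7, the slow myosin, stood among them at 178-fold (111 to 305), with 21.6 FPKM in SRSF1-MKO and 0.121 FPKM in WT. Slow genes were high in the library with less Ppp3cb and Rcan1, and with NFAT messages near those of WT as deposited. With the median of 0.32 set to 0, the NFAT log2 differences lay between -0.47 and -0.21. With TMM scaling they lay between -0.36 and 0.005, and with mitochondrial rescaling between -0.04 and 0.19. A link between these levels was not tested.

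The 8 muscle fibre markers summed to 34005 FPKM in SRSF1-MKO and 64692 FPKM in WT, with 3 higher and 3 lower. For this and the marker counts below, 23.7% of all genes were higher and 8.13% lower. Acta1, the skeletal actin, was at 10040 FPKM in SRSF1-MKO and 13109 FPKM in WT. The fast myosin Myh4, at 7176 FPKM in SRSF1-MKO and 28777 FPKM in WT, made most of the gap between the sums. Ckm, muscle creatine kinase, was at 2397 FPKM in SRSF1-MKO and 6495 FPKM in WT. Myh1, another fast myosin, was at 4028 FPKM in SRSF1-MKO and 1176 FPKM in WT. It was higher, as were the myosins Myh2 and Myh7, which are also among the slow and oxidative genes above. Markers of other cell types that express these genes gave a mixed picture. T cell markers, of interest for Nfatc2, summed to 0.505 FPKM over 8 genes in SRSF1-MKO and 0.342 FPKM in WT, with Cd8a at 0 in both libraries, Cd3e at 0 in SRSF1-MKO, Cd3d at 0 in WT, and 0 of 8 at a mean of 1 FPKM. Macrophage markers summed to 84.3 FPKM over 8 genes in SRSF1-MKO and 32.5 FPKM in WT, with 4 of 7 measured genes higher. Lyz2 (56.3 FPKM in SRSF1-MKO and 18.1 in WT) made most of that gap, and Mrc1 (5.61 in SRSF1-MKO and 6.79 in WT) went the other way. Endothelial markers summed to 60.9 FPKM over 7 genes in SRSF1-MKO and 80.6 FPKM in WT, with 2 of 7 lower. With the median set to 0, 3 macrophage markers were higher and 4 endothelial markers lower. Of all genes, 11.4% were higher and 18.1% lower on that scale. Sums for 6 fibroblast markers were 394 FPKM in SRSF1-MKO and 553 FPKM in WT. For 6 smooth muscle markers they were 78.9 in SRSF1-MKO and 90.4 in WT. The 4 satellite cell markers summed to 7.19 in SRSF1-MKO and 4.70 in WT, and 1 of them passed the filter. That gene, Cdh15 (5.75 FPKM in SRSF1-MKO and 3.53 in WT), made most of the gap. Under the filter, Myf5 (0.865 in SRSF1-MKO and 0.391 in WT) went the same way. Pax7 (0.550 in SRSF1-MKO and 0.604 in WT) and Calcr (0.0245 in SRSF1-MKO and 0.180 in WT) went the other way. Col1a1, at 121 FPKM in SRSF1-MKO and 276 FPKM in WT, made most of the gap in the fibroblast sum, whose 6 genes had a median log2 ratio of 0.21. The smooth muscle sum was lower mainly through Acta2 (27.8 FPKM in SRSF1-MKO and 42.1 in WT) and Rgs5 (21.5 in SRSF1-MKO and 26.2 in WT), whereas the 5 measured genes had a median log2 ratio of 0.23. The part of these cells in the differences above was not tested.

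Gene length moved with the ratio across the table. Protein-coding genes with models under 1500 bases had a median log2 ratio of 0.49, those from 2500 to 4000 bases 0.16, and those of 6000 bases or more 0.10. The 10 genes had models between 2324 bases (Rcan1) and 7469 bases (Cabin1). In the class from 2500 to 4000 bases, which holds Ppp3cb, Ppp3r1 and Rcan2, 9.68% of genes were at least 1.5-fold lower and 19.8% higher. Nfatc3 shares 219 exonic bases with Esrp2 on the opposite strand, and Esrp2 had 1 read in each library. Apart from Ppp3r1, of whose 31-base words 14.5% occur in another gene, no gene shared more than 2.49% of its words.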

How the data were processed

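Hindlimb muscle RNA was extracted with Trizol and made into libraries by a Lifetech procedure, per the labels' protocols. The authors deposited 1 table of FPKM values. Bowtie and the mm10 build appear in the submitters' processing notes; the sources used here give no annotation, counting method or strandedness. The FPKM unit is taken from the table's name and values, and 1 emptied line was not analysed here.

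Because FPKM = reads × 1e9 / (length × total) in whole numbers, totals and reads were recovered: of 19044 genes listed above 0 in each library, 92.8% gave a ratio of whole numbers (denominators to 3000, relative tolerance 1e-12), against 0.294% with the constant slightly changed. Recovery and calls were tested on simulated data. Where reads had been shared between places (Srsf1 among them), lengths came from GENCODE M21 (GRCm38). For other genes with an annotated transcript, the smallest fitting length was used, or a multiple of it near the longest transcript. Reads per gene are therefore approximate. Log2 ratios used a pseudocount of 1 FPKM and a filter at a mean of 1 FPKM. Intervals are exact (Clopper-Pearson) binomial ones, or from log odds for ratios within a library; they take reads as independent molecules. Of the 132 listed genes, 1 was matched through its Entrez number. Promoters came from RefSeq. Python 3.11.15, scipy 1.17.1 and pandas 2.3.3 were used.

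The members and lists were chosen with earlier results of these data known. Named genes are the 10 members, Srsf1, all of Ppp3cc, Ppp3r2, Rcan3 and Nfat5, and up to 4 genes a direction past 1.5-fold in each list; others named were chosen after their values were seen. A gene that this rule would name is not reported here. Alternatives were another pseudocount, filter, threshold and 3 scalings.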

Additional observations from a re-analysis of the deposited data

How the results depend on the processing

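Ppp3cb and Rcan1 were lower past 1.5-fold under every alternative tried at that limit. At a 2-fold limit 1 gene, Ppp3cb, was left of the 2, beside 3.12% lower of all genes. The count of higher members was 1, Rcan2, instead of 0 when FPKM were rescaled to reads outside mitochondrial genes and 18S ribosomal RNA. That stands beside 32.4% higher of all genes under this rescaling. Mitochondrial reads were 19.3% in SRSF1-MKO and 9.15% in WT. The count of lower members was 3, with Ppp3r1 added, with the median of 0.32 set to 0 and with trimmed-mean (TMM) scaling. Of all genes, 18.1% were lower with the median set to 0 and 13% with TMM scaling. The median log2 ratio of the members, -0.16, became -0.36 with a filter at a mean of 5 FPKM, which leaves fewer genes. It became -0.48 with the median of 0.32 set to 0 and -0.34 with TMM scaling. It was nearer 0 with mitochondrial rescaling, at -0.03, and with no filter, at -0.13. Over the genes that each setting kept, the median also moved, from 0.21 as deposited. It was 0.32 with the filter at 5 FPKM, -0.12 with median centring and 0.0003 with TMM scaling. With mitochondrial rescaling it was 0.35, and with no filter 0.05. The median of the members was below it under each of these settings. The log2 scale factors were -0.32 (median, on the log2 ratio), and -0.26 (TMM) and 0.18 (mitochondrial) on FPKM, so that low genes moved less under the last 2 once 1 FPKM was added. Median centring changed the sign of Ppp3ca and Nfatc2, and mitochondrial rescaling that of Nfatc1 and Nfatc3; none of these 4 was past the limit. A pseudocount of 0.1 FPKM changed no member's side of the limit. No paired analysis was possible because each group holds 1 library, and for the same reason no library could be left out. Alternatives for the 7 pathway lists were added after seeing the data; median centring moved 11 of their 21 counts and medians. Depth limits Nfatc2, Nfatc4 and Cabin1, with 52 to 270 reads per library.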
